A study of Mus musculus with 32 samples.

Results

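The 7 CDK inhibitor genes and the 3 D-type cyclin genes of the mouse were described in cells sorted from brain tumours at 3 stages of treatment. The 10 genes were taken by symbol from a table of 23337 genes, and all 10 were found there. RNA was sequenced from 32 libraries of 2 sorted populations: cells with CD11b and without Gr.1, labelled as tumour-associated macrophages (TAM, which include microglia), and PDGFRA+ cells, labelled as tumour cells (TC). Per the labels, DF-1:PDGFB cells were placed in the brain of XFM mice when they were 5 to 6 weeks old; DF-1 is a chicken fibroblast line, used in this kind of model to deliver a virus that carries the growth factor PDGFB. Dosing began at a tumour volume of 20 to 40 mm3 and ran each day until symptoms or an age of 26 weeks.

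Rebound mice (5 TAM and 5 TC libraries) were given BLZ945, which blocks CSF-1R, the receptor macrophages need for survival, and the labels do not define Rebound further. Endpoint mice (6 TAM and 6 TC libraries) were given BLZ945 too, and the labels call their tumours dormant. Vehicle mice (5 TAM and 5 TC libraries) were given vehicle according to their title and stage, although the agent label reads BLZ945 for them as well. The labels give the strain only as XFM. As known of the published study and not from the labels, this strain carries the avian virus receptor TVA under the nestin promoter and lacks the Ink4a/Arf locus, Cdkn2a, in the germline. All 3 groups, and the host's macrophages with them, would share that deletion. Libraries are named by mouse: 49041, 49059, 49827, 49834 and 49849 for TAM Rebound, and the same with 49692 in place of 49834 for TC Rebound. Endpoint mice were 49823, 49825, 49830, 49831, 49843 and 49845, and Vehicle mice 54359, 54363, 57098, 57682 and 64247; values are given in these orders.

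D-type cyclins bind the kinases CDK4 and CDK6, and the complex phosphorylates the retinoblastoma protein, which then releases E2F factors that drive genes of DNA replication. Growth factor signals induce the D cyclins, so they link those signals to entry into the cell cycle. The INK4 inhibitors (Cdkn2a, Cdkn2b, Cdkn2c and Cdkn2d) bind CDK4 and CDK6 alone, while the CIP/KIP inhibitors (Cdkn1a, Cdkn1b and Cdkn1c) bind complexes of cyclins and CDKs, those of CDK2 among them. In gliomas the CDKN2A and CDKN2B locus is often deleted, and PDGF receptor signalling is a known inducer of D cyclins in the oligodendrocyte lineage.

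Library totals were 15352174 to 19561440 counts in TAM Rebound, 9543888 to 15789460 in TAM Endpoint and 25556830 to 30383148 in TAM Vehicle. They were 10501264 to 16460126 counts in TC Rebound, 4180176 to 14029216 in TC Endpoint and 13126801 to 22989777 in TC Vehicle. Every non-zero count in the Rebound and Endpoint libraries was even, against 47.1 to 49.5% in Vehicle libraries, so this property and treatment cannot be told apart. Levels are CPM, counts relative to the library's total, scaled over all 32 libraries, errors are SD over mice, and a call is an edgeR adjusted p below 0.05 over all genes tested in the contrast. The TAM libraries carried 6 of 6 myeloid markers, which summed to 11115 to 18387 CPM at Rebound, 15954 to 17756 CPM at Endpoint and 25391 to 42380.3 CPM in Vehicle. The PDGFRA sort at Endpoint went against its label in part: the summed level of 6 tumour cell and oligodendrocyte progenitor markers was 1407 to 4814 CPM in TC Rebound, 158 to 1409.8 CPM in TC Endpoint and 1590.1 to 5871 CPM in TC Vehicle. Of those 6 markers all had counts in every TC library except Olig2, which was at 0 in 1 Endpoint library. The 6 choroid plexus and ependyma markers summed to 1.66 to 945 CPM in TC Rebound, 5225 to 185771 CPM in TC Endpoint and 8.74 to 515 CPM in TC Vehicle. Endpoint 49843 had the highest tumour marker sum and the lowest choroid plexus sum of its group, and Endpoint 49845 the highest choroid plexus sum. Endpoint 49843 also had the highest myeloid sum of the TC libraries, 3239 CPM. That sum was 461 to 1191 CPM in the other TC Endpoint libraries, 8.05 to 353 CPM in TC Rebound and 84.7 to 636 CPM in TC Vehicle. B cell markers summed to 761 CPM in Endpoint 49825 and to 6.36 to 57.1 CPM in the other TC Endpoint libraries. T and NK cell markers passed a summed 25 CPM in 4 TC Endpoint libraries (49823, 49825, 49830 and 49831, at 4199, 2840, 3376 and 3127 CPM). The tumour cell markers summed to 158 to 269 CPM in those 4. The same limit was passed in TC Rebound 49827 (2361 CPM) and in TAM Rebound 49041, 49059 and 49849 (87.8, 109 and 27.1 CPM). Endpoint results of the CDK inhibitors and D cyclins are therefore given by sort, with the marker sums beside them. They are given with and without these 8 libraries, called the T/NK libraries from here on. The gene lists further below are given only with these libraries included. Without them TC Endpoint keeps only 49843 and 49845, and TAM Rebound only 49827 and 49834. A call lost there cannot be told apart from the loss of libraries.

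**Figure D1:**
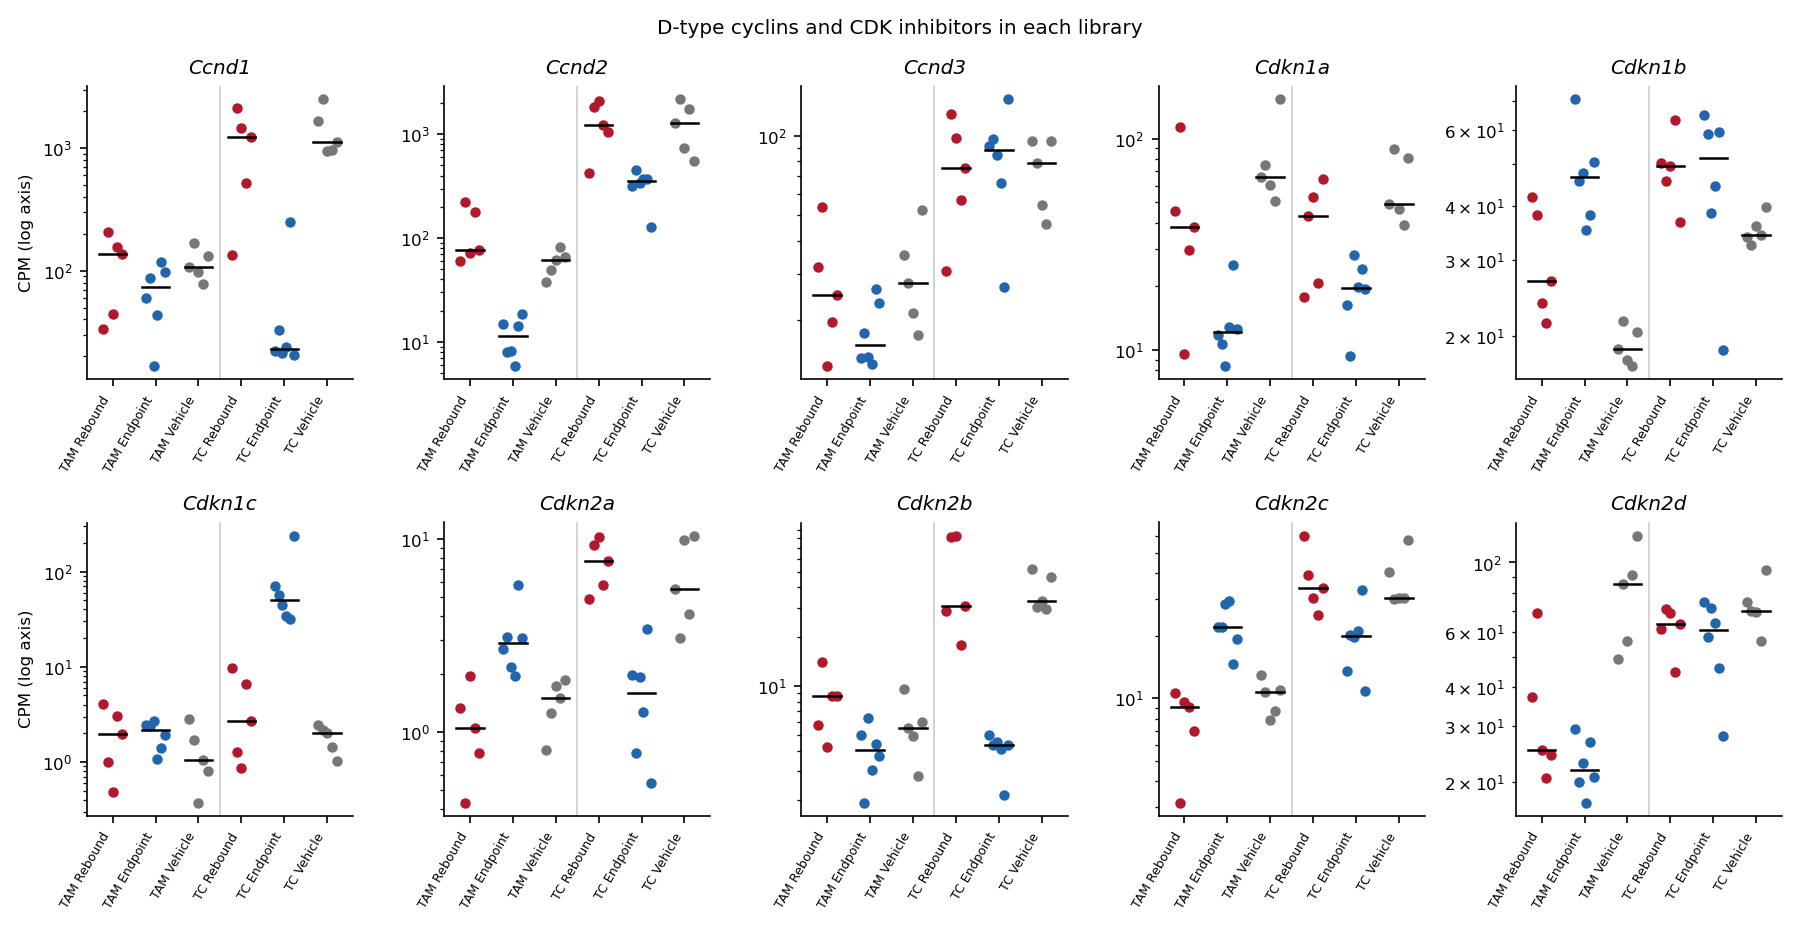
Level of each gene in every library (CPM, log axis), by sort and stage; each point is a library and each line the group median. Ccnd1 and Cdkn2b in TC Endpoint lay below, and Cdkn1c above, every TC Vehicle library, while in TAMs Ccnd2 was lower and Cdkn2c higher at Endpoint than in each of the other groups.

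Ccnd1 and Ccnd2 had the highest mean levels per kilobase of the 10 genes in Rebound and Vehicle tumour cells, and both were lower in the PDGFRA sort at Endpoint. Ccnd1, which encodes cyclin D1 (chromosome 7, 144929931 to 144939925, minus strand; coordinates here and below are GRCm38, GENCODE M21, and cover the whole protein-coding gene), had 135, 2151, 1469, 519 and 1244 CPM in TC Rebound. It ran from 20.5 to 252 CPM with a median of 23.0 in TC Endpoint, and was 1671, 2510.4, 942, 975 and 1131 CPM in TC Vehicle. Each Endpoint library lay below each Vehicle library; Endpoint 49843, at 252 CPM, was the only one above the lowest Rebound library, 49041. Ccnd1 fell at Endpoint against Vehicle (log2 difference -4.52 with SE 0.834, adjusted p = 0.00193 by edgeR) and was higher at Rebound than at Endpoint (log2 difference 4.15 with SE 0.821, adjusted p = 0.00321 by edgeR). Without Endpoint 49843 these differences were -5.90 and 5.53. Without the T/NK libraries, which leaves Endpoint 49843 and 49845, they were -3.38 (adjusted p = 0.0752) and 3.20 (adjusted p = 0.0633), neither of them called. In bulk libraries, fewer cells of a type and less RNA per cell cannot be told apart. The tumour cell marker sum was lower with Ccnd1 at Endpoint, and its part in the result was not tested. Rebound 49041 had 135 CPM of Ccnd1 beside a marker sum of 3100.2 CPM, and Endpoint 49843 had 252 CPM beside 1410 CPM. The other Endpoint libraries had 20.5 to 32.6 CPM beside 158 to 269 CPM. Ccnd1 was at 519 to 2151 CPM beside 1407 to 4814 CPM in the other Rebound libraries. In Vehicle it was at 942 to 2510.4 CPM beside 1590 to 5871 CPM.

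Ccnd2, the gene of cyclin D2 (chromosome 6, 127125162 to 127152193, minus strand), moved in both sorts. In TCs it had 421, 1849, 2107, 1218 and 1046 CPM at Rebound, ran from 129 to 453 CPM with a median of 357 at Endpoint, and had 1291, 2167, 740.0, 1748 and 547 CPM in Vehicle. Endpoint and Vehicle did not overlap, and Rebound 49041 was the only Rebound library inside the Endpoint range. Ccnd2 fell in TC Endpoint against Vehicle (log2 difference -1.96 with SE 0.423, adjusted p = 0.00394 by edgeR), a call that ended without the T/NK libraries (-2.36, adjusted p = 0.0703), and was higher at Rebound than at Endpoint (log2 difference 2.01 with SE 0.423, adjusted p = 0.00401 by edgeR).

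In TAMs Ccnd2 had 60.7, 222, 71.7, 179.7 and 76.6 CPM at Rebound, ran from 5.85 to 18.8 CPM with a median of 11.3 at Endpoint, and had 37.5, 48.9, 62.0, 81.9 and 65.6 CPM in Vehicle. All 6 Endpoint libraries lay below every library of both other groups. Ccnd2 fell at Endpoint against Vehicle (log2 difference -2.22 with SE 0.364, adjusted p = 0.00022 by edgeR) and was higher at Rebound than at Endpoint (log2 difference 3.35 with SE 0.377, adjusted p = 3.74e-05 by edgeR), its largest stage difference in either sort. Against Vehicle, Rebound TAMs were also called higher (log2 difference 1.13 with SE 0.371, adjusted p = 0.0486 by edgeR), but the ranges overlapped. That call ended when any 1 of Rebound 49059 or 49834, or Vehicle 54359, 54363, 57098 or 64247, was left out (0.82 to 1.16, adjusted p 0.0731 to 0.140), and without the low-count filter (adjusted p = 0.0970). It also ended without the T/NK libraries, where the difference was 1.19 (adjusted p = 0.103 by edgeR). The tumour cell markers summed to 34.6 to 242 CPM in TAM Rebound, 11.7 to 34.3 CPM in TAM Endpoint and 31.8 to 74.6 CPM in TAM Vehicle. The 6 endothelial cell markers summed to 45.0 to 140.4 CPM at Rebound, 5.40 to 9.83 CPM at Endpoint and 24.6 to 52.6 CPM in Vehicle, with Endpoint below both other groups as for Ccnd2. The part of either marker set in the Ccnd2 values was not tested.

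In TAMs Ccnd1 was not called in any stage contrast. It had 33.3, 207, 44.5, 157 and 137 CPM at Rebound, ran from 16.6 to 119 CPM with a median of 73.5 at Endpoint, and had 107, 167, 97.0, 77.5 and 131 CPM in Vehicle, with all 3 ranges overlapping. The differences were -0.60 for Endpoint against Vehicle (SE 0.487, adjusted p = 0.370) and 0.08 for Rebound against Vehicle (SE 0.509, adjusted p = 0.936).

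Ccnd3, the gene of cyclin D3 (chromosome 17, 47505051 to 47599691, plus strand), which is best known from lymphoid cells, was not called at any stage in either sort. It had 30.8, 120.3, 98.1, 57.2 and 75.1 CPM in TC Rebound, 26.7 to 137 CPM in TC Endpoint and 95.3, 78.6, 54.5, 46.1 and 95.7 CPM in TC Vehicle. In TAMs it was 13.4 to 53.4 CPM at Rebound, 13.7 to 26.1 CPM at Endpoint and 17.6 to 52.0 CPM in Vehicle. Within TC Endpoint the lowest library was 49843 (26.7 CPM), in which Ccnd1 was highest, and the highest was 49845 (137 CPM). The exons of all 3 D cyclins, and those of Cdkn1a and Cdkn1c, share bases with a gene on the opposite strand, and the kit does not mark strand, so reads there cannot be told apart. The partner of Ccnd1, listed as Oraov1, was at 16.5 to 30.7 CPM in TC Rebound, 10.7 to 35.7 CPM in TC Endpoint and 17.5 to 30.9 CPM in TC Vehicle. Bysl, the partner of Ccnd3, was at 14.9 to 67.2, 19.8 to 43.0 and 52.7 to 79.1 CPM in TC Rebound, TC Endpoint and TC Vehicle.

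The makeup of the D cyclins was compared per kilobase of exon, since the 3 genes differ in length. Ccnd1 made up a median 57.0% of the summed level in TC Rebound, 10.1% in TC Endpoint and 70.2% in TC Vehicle. The sum itself was 384 ± 234 CPM per kb in TC Rebound, 57.9 ± 21.4 CPM per kb in TC Endpoint and 454 ± 198 CPM per kb in TC Vehicle (SD, n = 5, 6 and 5). In TC Endpoint 49823, 49825, 49830 and 49831 the largest share was Ccnd2's, 69.1 to 76.0%. Ccnd1 held 55.6% in 49843 and Ccnd3 46.4% in 49845, with Ccnd2 at 41.2% and 40.7%. In TAMs the order was another one: Ccnd1 held a median 59.7% at Rebound, 81.3% at Endpoint and 69.6% in Vehicle. The share of Ccnd2 in TAMs was 20.3 to 41.0% at Rebound, 3.97 to 14.5% at Endpoint and 11.9 to 32% in Vehicle, so Rebound and Endpoint did not overlap. The D cyclins of TAMs summed to 40.9 ± 24.1 CPM per kb at Rebound, 18.3 ± 8.89 CPM per kb at Endpoint and 34.4 ± 7.39 CPM per kb in Vehicle. These shares are a description, with no test.

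**Figure D2:**
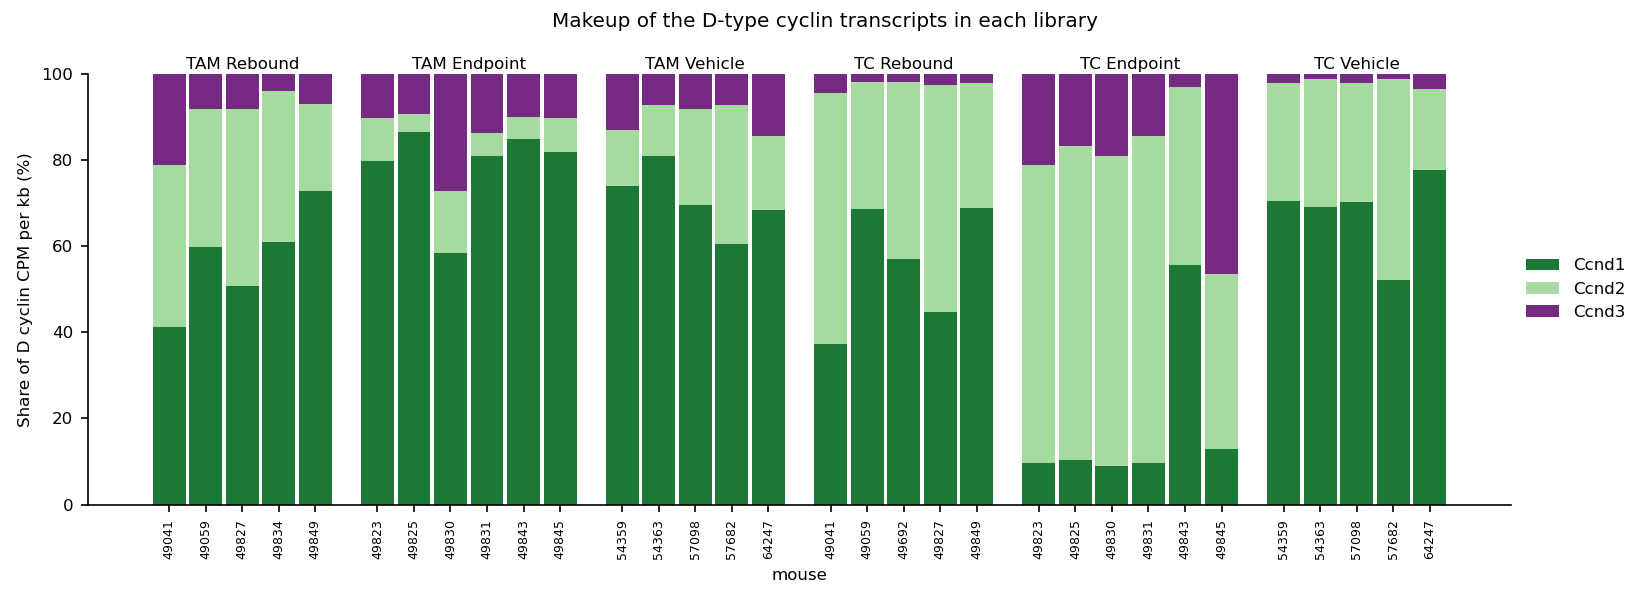
Share of Ccnd1, Ccnd2 and Ccnd3 in the summed D cyclin level (CPM per kb of exon, %) in each library, by group and mouse. Ccnd1 made up 8.96 to 12.9% in 5 of the 6 TC Endpoint libraries and 52.0 to 77.7% in TC Vehicle libraries.

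Of the CIP/KIP inhibitors, Cdkn1a was lower at Endpoint in both sorts, Cdkn1b was higher in Endpoint TAMs, and Cdkn1c was higher in the PDGFRA sort at Endpoint. Cdkn1a encodes p21, the inhibitor induced by p53 (chromosome 17, 29090976 to 29100727, plus strand). In TAMs it had 45.5, 114, 9.62, 29.7 and 38.3 CPM at Rebound, ran from 8.38 to 25.2 CPM with a median of 12.2 at Endpoint, and had 66.0, 74.7, 60.5, 50.9 and 154 CPM in Vehicle. Endpoint and Vehicle did not overlap, while Rebound spread over both, from 49827 at 9.62 CPM to 49059 at 114 CPM. Cdkn1a fell in TAM Endpoint against Vehicle (log2 difference -2.46 with SE 0.480, adjusted p = 0.00107 by edgeR) and was higher at Rebound than at Endpoint (log2 difference 1.75 with SE 0.473, adjusted p = 0.0176 by edgeR). The second difference was 1.15 without Rebound 49059 (adjusted p = 0.0671) and 0.53 without the T/NK libraries (adjusted p = 0.608), and neither was called. Rebound against Vehicle was not called (-0.71, adjusted p = 0.350).

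In TCs Cdkn1a had 17.8, 43.0, 53.1, 20.7 and 64.5 CPM at Rebound, ran from 9.34 to 28.3 CPM with a median of 19.7 at Endpoint, and had 49.0, 89.4, 46.6, 38.9 and 81.0 CPM in Vehicle. Endpoint and Vehicle did not overlap, and Cdkn1a fell at Endpoint (log2 difference -1.63 with SE 0.363, adjusted p = 0.00468 by edgeR). Without the T/NK libraries that difference was -1.48 and not called (adjusted p = 0.0887). The difference of Rebound from Endpoint (log2 difference 1.04 with SE 0.360, adjusted p = 0.0425 by edgeR) was lost without any 1 of Rebound 49059, 49692 or 49849 or Endpoint 49823, 49825, 49831 or 49845 (0.80 to 1.05, adjusted p 0.0651 to 0.139) and with RLE scaling (adjusted p = 0.0535) and without the T/NK libraries (adjusted p = 0.160). Trp53, the gene of p53, was 135 ± 11.5 CPM in TAM Rebound, 109.7 ± 12.1 CPM in TAM Endpoint and 198 ± 30.8 CPM in TAM Vehicle; it fell in both Endpoint and Rebound TAMs against Vehicle (-0.73 and -0.46, adjusted p = 0.000487 and 0.0352).

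Cdkn1b encodes p27, an inhibitor that accumulates in resting cells and is controlled largely through its protein's breakdown (chromosome 6, 134920401 to 134925513, plus strand). In TAMs it had 42.0, 38.1, 23.8, 21.4 and 26.7 CPM at Rebound, ran from 35.1 to 70.8 CPM with a median of 46.7 at Endpoint, and had 18.6, 21.7, 17.6, 17.0 and 20.4 CPM in Vehicle. Every Endpoint library lay above every Vehicle library, and Rebound lay between with an overlap on each side. Cdkn1b rose in Endpoint TAMs (log2 difference 1.44 with SE 0.206, adjusted p = 5.76e-05 by edgeR) and, to a smaller size, in Rebound TAMs against Vehicle (log2 difference 0.75 with SE 0.210, adjusted p = 0.0223 by edgeR). The Rebound difference was not called without Rebound 49041 (0.62, adjusted p = 0.0661), without 49059 (0.67, 0.0538) or without the T/NK libraries (0.34, 0.470). Rebound was below Endpoint (log2 difference -0.69 with SE 0.202, adjusted p = 0.0234 by edgeR), a call lost without any 1 of Rebound 49827, 49834 or 49849 or Endpoint 49823 (-0.66 to -0.56). In TCs Cdkn1b had 50.4, 45.8, 49.5, 63.2 and 36.8 CPM at Rebound, 18.5 to 65.3 CPM at Endpoint and 33.9, 32.5, 35.9, 34.3 and 39.9 CPM in Vehicle. It was not called in any TC contrast (Endpoint against Vehicle 0.45, adjusted p = 0.223); without Endpoint 49845, the lowest library at 18.5 CPM, that difference was 0.59 and called (adjusted p = 0.0314).

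Cdkn1c encodes p57, an imprinted inhibitor that is expressed from the maternal copy and is known from cells leaving the cycle (chromosome 7, 143458339 to 143461050, minus strand). It had 9.60, 1.26, 0.874, 6.52 and 2.71 CPM in TC Rebound, ran from 31.8 to 237 CPM with a median of 50.7 in TC Endpoint, and had 2.45, 2.14, 2.03, 1.45 and 1.02 CPM in TC Vehicle. The 6 Endpoint libraries lay above all 10 others, with 49845 highest at 237 CPM. Cdkn1c rose at Endpoint against Vehicle (log2 difference 5.44 with SE 0.751, adjusted p = 0.000473 by edgeR) and was lower at Rebound than at Endpoint (log2 difference -4.22 with SE 0.704, adjusted p = 0.00135 by edgeR), the largest changes of the CDK inhibitors. Without Endpoint 49845 these were 4.72 and -3.50, and without the T/NK libraries 6.18 and -5.18, all of them called. Part of the exons of Cdkn1c is shared with Gm44732 on the opposite strand, a gene with no row of its own in the count table.

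The choroid plexus and ependyma marker sum rose with Cdkn1c. Among the TC Endpoint libraries, 49845 held the highest of both and 49843 the lowest of both (31.8 CPM beside a sum of 5225 CPM). Over the 16 TC libraries the genes whose levels followed Cdkn1c most closely were Odz4 (0.968) and Car14 (0.941), with Spearman's rho as a description over libraries that share their groups; Car14 encodes a carbonic anhydrase. In TAMs, where the same markers summed to 2.34 to 519.6 CPM at Rebound, 58.3 to 151 CPM at Endpoint and 2.72 to 6.25 CPM in Vehicle, Cdkn1c stayed at 0.489 to 4.03 CPM, 1.08 to 2.68 CPM and 0.374 to 2.83 CPM in the same groups and was not called (Endpoint against Vehicle 0.68, adjusted p = 0.398). The part of choroid plexus cells in the Cdkn1c result was not tested.

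**Figure D3:**
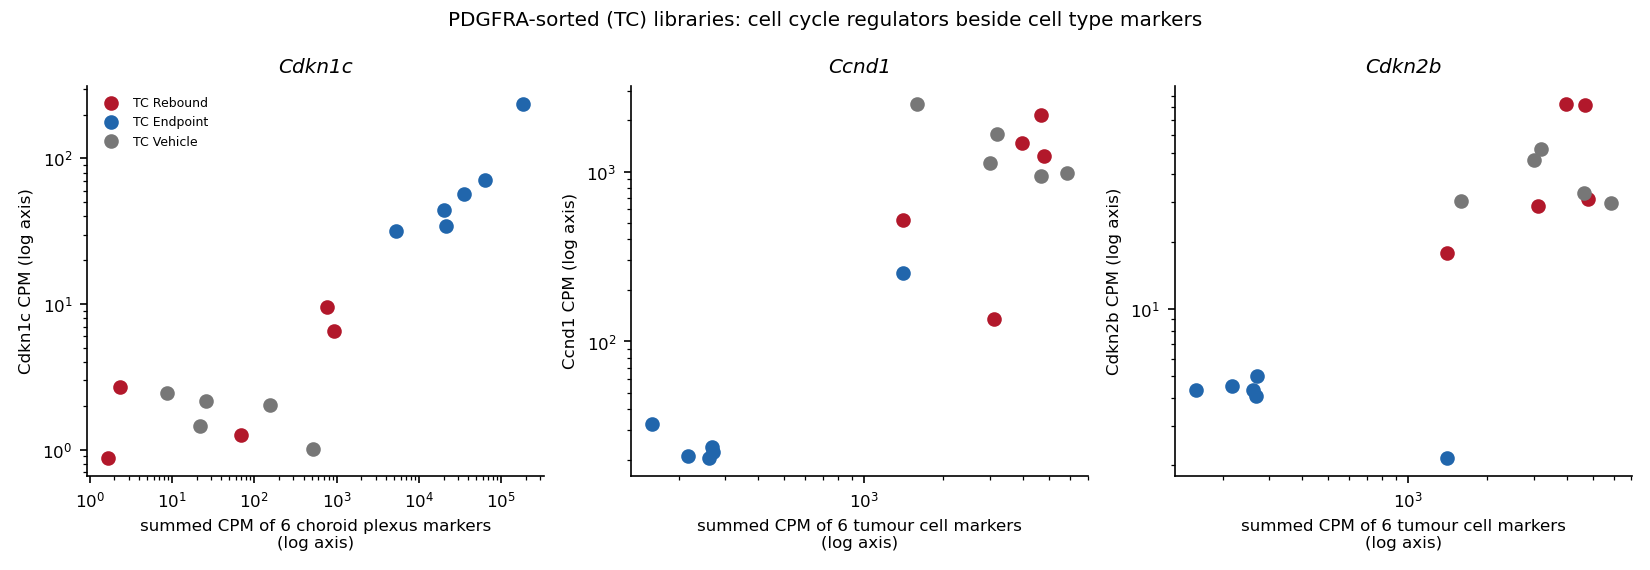
Levels of Cdkn1c, Ccnd1 and Cdkn2b (CPM, log axis) in the 16 PDGFRA-sorted libraries against the summed CPM of 6 marker genes (log axis), choroid plexus markers for Cdkn1c and tumour cell markers for the other 2; colours give the stage. TC Endpoint libraries lie at 5225 to 185771 CPM of choroid plexus markers and hold the 6 highest Cdkn1c levels. Endpoint 49843, with 1410 CPM of tumour cell markers, has the highest Ccnd1 and the lowest Cdkn2b (10 counts) of its group.

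Of the INK4 genes Cdkn2a, Cdkn2b and Cdkn2c fell in the PDGFRA sort at Endpoint and Cdkn2d was not called; in TAMs Cdkn2c was higher and Cdkn2d lower at Endpoint. Cdkn2a (chromosome 4, 89274471 to 89294653, minus strand), the gene the strain is known to lack in working form, still had counts in every library. Its 2 coding transcripts, for the inhibitor Ink4a and for Arf, a protein that stabilises p53, begin at separate first exons and share the next one in another frame. The counts are per symbol and do not say which exon they fall on, so they check neither the deletion nor the labels. Cdkn2b, the gene of the inhibitor Ink4b (chromosome 4, 89306299 to 89311039, minus strand), lies 11645 bases from Cdkn2a on the same strand. The 3 start regions of this locus are shown because the pair fell together in TC Endpoint. They are the RefSeq promoter windows (GRCm38.p6), 5′ to 3′ on the minus strand, trimmed to the bases outside GENCODE exons. Capitals mark matches of the searched motifs. The first is the Arf start at chr4:89294654-89294869, the second the Ink4a start at chr4:89282193-89282442 and the third Cdkn2b at chr4:89311040-89311282.
Cdkn2a, Arf start: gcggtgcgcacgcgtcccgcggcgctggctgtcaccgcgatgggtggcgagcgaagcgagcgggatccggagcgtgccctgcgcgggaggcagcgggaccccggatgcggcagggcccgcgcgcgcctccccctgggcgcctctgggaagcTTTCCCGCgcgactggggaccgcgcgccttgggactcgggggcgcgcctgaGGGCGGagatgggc
Cdkn2a, Ink4a start: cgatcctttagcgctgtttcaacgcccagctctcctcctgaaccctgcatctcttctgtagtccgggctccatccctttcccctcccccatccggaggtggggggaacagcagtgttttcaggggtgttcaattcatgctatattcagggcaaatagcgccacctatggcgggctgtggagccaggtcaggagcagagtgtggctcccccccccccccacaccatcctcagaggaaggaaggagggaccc
Cdkn2b: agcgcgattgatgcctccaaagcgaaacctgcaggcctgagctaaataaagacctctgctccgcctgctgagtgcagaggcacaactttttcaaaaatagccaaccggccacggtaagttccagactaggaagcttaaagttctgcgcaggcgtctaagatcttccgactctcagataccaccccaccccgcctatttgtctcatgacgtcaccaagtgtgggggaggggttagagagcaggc

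The motifs were searched on both strands: E2F (TTTCCCGC, TTTGGCGC, TTTCGCGC or TTTGCCGC), the GC box GGGCGG, the E-box CACGTG and the TATA box TATAAA. Of 32851 RefSeq promoters, 1.86% held the E2F motif within 250 bases before the start, 32.7% the GC box, 6.02% the E-box and 12.4% the TATA box. The Arf window held 1 E2F match and 1 GC box, and the windows of Ink4a and Cdkn2b held none of the 4 motifs. A match is a description of the letters and not a binding site, and these are sequences of the reference genome and not of the strain.

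Cdkn2a had 4.90, 9.33, 10.2, 5.77 and 7.70 CPM in TC Rebound, ran from 0.545 to 3.44 CPM with a median of 1.60 in TC Endpoint, and had 5.54, 3.08, 9.92, 4.08 and 10.4 CPM in TC Vehicle. The counts behind these levels were 78 to 234 in Rebound, 6 to 26 in Endpoint and 46 to 303 in Vehicle libraries. Those of Rebound and Endpoint were all even, so they may not compare directly with those of Vehicle. Rebound and Endpoint did not overlap, and Endpoint 49843 (3.44 CPM) was the only Endpoint library above the lowest Vehicle library. Cdkn2a fell at Endpoint against Vehicle (log2 difference -1.99 with SE 0.522, adjusted p = 0.0111 by edgeR) and was higher at Rebound than at Endpoint (log2 difference 2.22 with SE 0.525, adjusted p = 0.00718 by edgeR). Without the T/NK libraries the differences were -1.77 and 2.08 and neither was called (adjusted p = 0.200 and 0.112).

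Cdkn2a in TAMs had 1.34, 0.432, 1.96, 1.06 and 0.779 CPM at Rebound, ran from 1.95 to 5.78 CPM with a median of 2.90 at Endpoint, and had 0.807, 1.26, 1.73, 1.5 and 1.85 CPM in Vehicle. All 6 Endpoint libraries lay above all 5 Vehicle libraries, yet the difference was not called (log2 difference 1.25 with SE 0.494, adjusted p = 0.0583 by edgeR). It passed with DESeq2 (adjusted p = 0.0130) and with the Endpoint and Rebound counts halved (adjusted p = 0.0350), and rests on 18 to 66 counts per Endpoint library. Rebound was called below Endpoint (log2 difference -1.53 with SE 0.504, adjusted p = 0.0416 by edgeR). That call was lost without any 1 of Rebound 49041, 49059, 49834 or 49849 or Endpoint 49823, 49825, 49843 or 49845 (-1.59 to -1.24), without the low-count filter, and without the T/NK libraries (-1.07, adjusted p = 0.405).

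Cdkn2b, an inhibitor known to be induced by TGF-beta, had 28.8, 81.4, 82.7, 17.8 and 30.9 CPM in TC Rebound, ran from 2.15 to 5.03 CPM with a median of 4.36 in TC Endpoint, and had 52.1, 30.3, 32.9, 29.7 and 46.4 CPM in TC Vehicle. Endpoint lay below both other groups with no overlap, and its lowest library was 49843 (2.15 CPM), the one with the most tumour cell marker. The counts behind these levels were 240 to 1894 in Rebound, 10 to 66 in Endpoint and 452 to 1004 in Vehicle libraries. The value of 49843 rests on 10 counts, so its place as the lowest is uncertain. Cdkn2b fell at Endpoint against Vehicle (log2 difference -3.21 with SE 0.390, adjusted p = 0.000251 by edgeR) and was higher at Rebound than at Endpoint (log2 difference 3.57 with SE 0.395, adjusted p = 0.000303 by edgeR). Both calls held in all 16 alternatives of each contrast. In TAMs Cdkn2b had 5.77, 14.0, 4.24, 8.61 and 8.70 CPM at Rebound, 1.93 to 6.37 CPM at Endpoint and 9.62, 5.52, 4.91, 2.81 and 6.04 CPM in Vehicle, and no contrast was called (Rebound against Endpoint 0.99, adjusted p = 0.0769). That difference passed with DESeq2 (adjusted p = 0.0454) and without Rebound 49827 (adjusted p = 0.0433). Mtap, the enzyme gene that is often lost together with this locus in human tumours, was 70.4 ± 28.1 CPM in TC Rebound, 56.6 ± 9.32 CPM in TC Endpoint and 55.6 ± 8.55 CPM in TC Vehicle (SD, n = 5, 6 and 5).

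Cdkn2c, the gene of the inhibitor Ink4c (chromosome 4, 109660876 to 109667189, minus strand), had 10.6, 3.16, 9.62, 9.06 and 7.01 CPM in TAM Rebound, ran from 14.6 to 29.3 CPM with a median of 21.9 in TAM Endpoint, and had 13.0, 10.7, 7.90, 8.66 and 11 CPM in TAM Vehicle. Endpoint lay above both other groups with no overlap. Cdkn2c rose in Endpoint TAMs (log2 difference 1.25 with SE 0.280, adjusted p = 0.00217 by edgeR) and was lower at Rebound than at Endpoint (log2 difference -1.54 with SE 0.284, adjusted p = 0.00122 by edgeR), and both calls held in every alternative run. In TCs the order was opposite: 60.2, 39.1, 30.3, 25 and 33.9 CPM at Rebound, a range from 10.9 to 33.1 CPM with a median of 19.9 at Endpoint, and 40.3, 29.8, 30.3, 30.2 and 57.7 CPM in Vehicle. Only Endpoint 49843 (33.1 CPM) reached into the Vehicle range. Cdkn2c fell in TC Endpoint against Vehicle (log2 difference -0.92 with SE 0.306, adjusted p = 0.0329 by edgeR) and was higher at Rebound than at Endpoint (log2 difference 0.95 with SE 0.306, adjusted p = 0.0324 by edgeR). The first call was lost without Vehicle 64247 or any 1 Endpoint library but 49843 (-0.94 to -0.72), the second without Rebound 49041, 49059 or 49849 or any 1 Endpoint library but 49843 (0.72 to 0.98), and both without the T/NK libraries (-0.77 and 0.91, adjusted p = 0.319 and 0.208).

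Cdkn2d, the gene of the inhibitor Ink4d (chromosome 9, 21288410 to 21291407, minus strand), had 37.2, 69.2, 25.3, 20.5 and 24.3 CPM in TAM Rebound, ran from 17.1 to 29.5 CPM with a median of 21.8 in TAM Endpoint, and had 49.0, 85.2, 56.0, 91.1 and 122 CPM in TAM Vehicle. Endpoint and Vehicle did not overlap, and Rebound 49059 (69.2 CPM) was the only Rebound library within the Vehicle range. Cdkn2d fell against Vehicle in TAM Endpoint (log2 difference -1.71 with SE 0.293, adjusted p = 0.000273 by edgeR) and in TAM Rebound (log2 difference -1.13 with SE 0.306, adjusted p = 0.0198 by edgeR). The Rebound call was lost without Rebound 49849 (-1.02) or Vehicle 64247 (-0.93), while without the T/NK libraries the difference was larger, at -1.73. In TCs Cdkn2d was 44.9 to 71.0 CPM at Rebound, 28.0 to 74.9 CPM at Endpoint and 56.0 to 94.8 CPM in Vehicle and was not called (Endpoint against Vehicle -0.34, adjusted p = 0.302).

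Counted over the 10 genes, all of which passed the low-count filter in each fit, 7 were called in TC Endpoint against Vehicle, 1 higher and 6 lower, where 28.7% of 14985 genes were called (14.0% higher and 14.8% lower). In TC Rebound against Endpoint 7 were called, 6 higher and 1 lower (25.1% of all genes, 13.6% higher and 11.5% lower). In TC Rebound against Vehicle none was called by edgeR, none had an unadjusted p below 0.05, and DESeq2 called 0; of all genes 0.0734%, or 11, were called (0.0400% higher and 0.0334% lower), and 586 without Rebound 49827, with none of the 10 among them. The widest difference there was that of Cdkn1c (1.22, SE 0.650, adjusted p = 0.397). The 2 contrasts with Endpoint share their Endpoint libraries, so the reversal of the same 7 genes is not a second observation. Without the T/NK libraries 2 genes were called in TC Endpoint against Vehicle, Cdkn1c and Cdkn2b, and 3 in Rebound against Endpoint, those and Ccnd2. The shares of all genes called in that alternative are not given here, so these 2 counts are no result about the 10 genes.

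In TAMs 5 genes were called in Endpoint against Vehicle, 2 higher and 3 lower, where 33.0% of 13315 genes were called (13.7% higher and 19.3% lower). In Rebound against Vehicle 3 were called, 2 higher and 1 lower (14.7% of all genes, 7.0% higher and 7.73% lower). In Rebound against Endpoint 5 were called, 2 higher and 3 lower (17.6% of all genes, 11.7% higher and 5.90% lower). The count for Rebound against Vehicle was 1 without Rebound 49059, without Vehicle 64247 or without the T/NK libraries. The count for Rebound against Endpoint was 3 without Rebound 49059, 49834 or 49849, without Endpoint 49823, or without the T/NK libraries. The shares of all genes called in these alternatives are not given here, so the counts are no result about the 10 genes. The median log2 fold change of the 10 genes was -0.49 in TAM Endpoint and -1.28 in TC Endpoint against Vehicle, beside -0.03 and 0.03 over all genes tested.

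**Figure D4:**
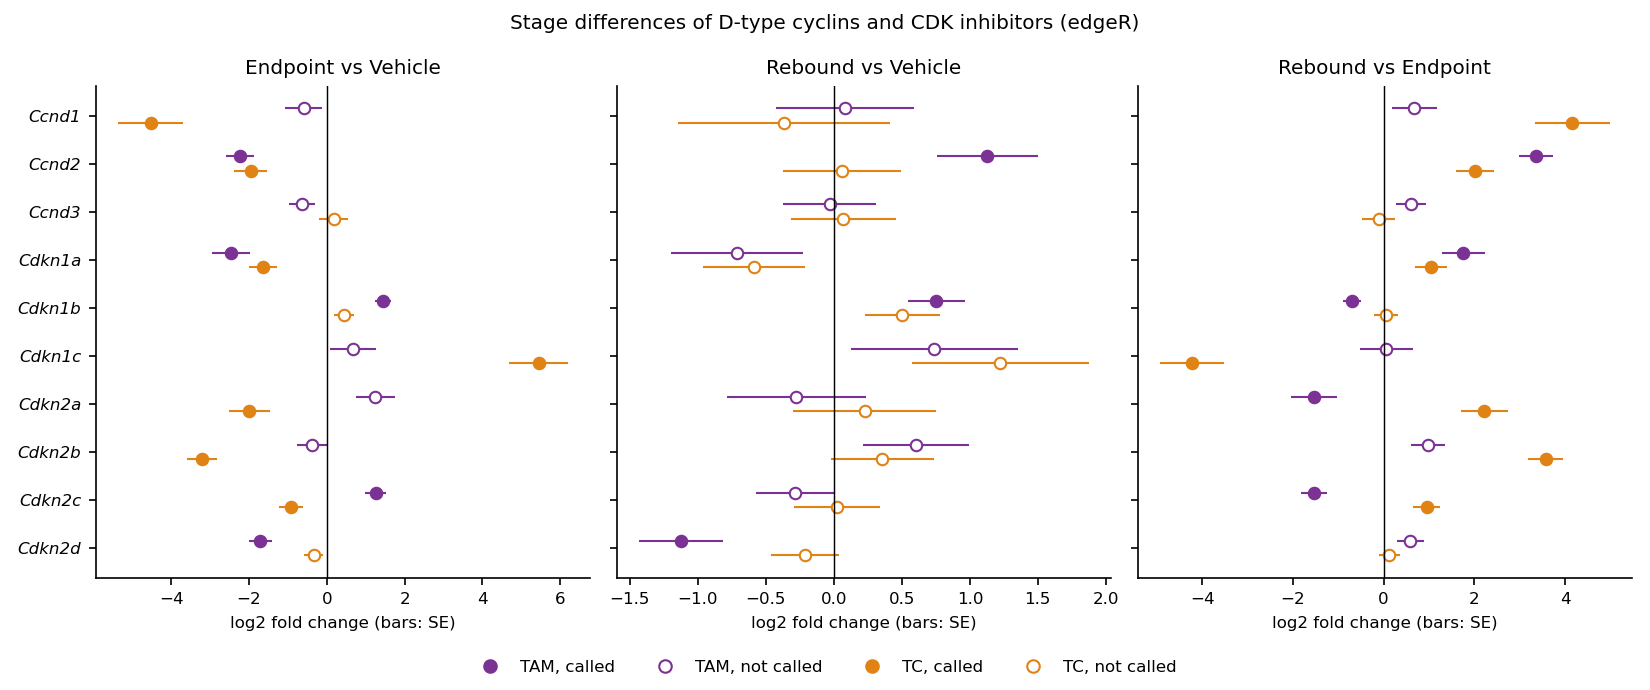
Log2 fold change of each gene (bars: SE) in the 3 stage contrasts, with TAM and TC side by side; filled points are called at an edgeR adjusted p below 0.05 over all genes. At Endpoint against Vehicle, Cdkn2c was called higher in TAMs (1.25) and lower in TCs (-0.92). At Rebound against Vehicle no TC point is filled, where 0.0734% of all genes were called.

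The response at Endpoint was then compared between the sorts with an interaction term in a fit of all 32 libraries. The TC Endpoint libraries in that fit went against their label in part, with choroid plexus sums of 5225 to 185771 CPM. The term therefore compares sorts and not macrophages with tumour cells alone. It was called for 7 of the 10 genes, 5 with a higher change in TAMs than in TCs and 2 with a lower one, where 25.7% of 15668 genes were called (8.73% higher and 17.0% lower). The higher ones were Ccnd1 (3.83, SE 0.948, edgeR adjusted p = 0.00413), Cdkn2a (3.14, SE 0.675, 0.00129), Cdkn2b (2.71, SE 0.540, 0.000639), Cdkn2c (2.08, SE 0.416, 0.000678) and Cdkn1b (0.91, SE 0.333, 0.0441). The lower ones were Cdkn1c (-4.87, SE 0.872, 0.000231) and Cdkn2d (-1.47, SE 0.391, 0.00684). For Ccnd2, which fell in both sorts, the difference between them was -0.37 and not called (SE 0.575, adjusted p = 0.682), and for Cdkn1a it was -0.94 (SE 0.608, 0.269).

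With the mouse as a block, since 15 of 17 mice gave both sorts, the Cdkn1b interaction was 0.97 and not called (adjusted p = 0.0551). It was also lost without any 1 of 13 libraries, namely TAM Endpoint 49823, 49825, 49830 and 49845, TAM Vehicle 57098 and 57682, TC Endpoint 49830, 49831 and 49845, and TC Vehicle 54359, 57098, 57682 and 64247 (0.74 to 0.92). Without TC Endpoint 49843 the Ccnd1 interaction was 5.35; that of Cdkn1c was -4.14 without TC Endpoint 49845 and -4.28 without TAM Vehicle 54359. Without the T/NK libraries the terms of Ccnd1 (2.70) and Cdkn2d (-0.84) were not called. In the Rebound against Vehicle response none of the 10 genes differed between sorts by edgeR or DESeq2, and 1, Cdkn2d (-0.96), had an unadjusted p below 0.05; 0.517% of all genes were called (0.319% higher and 0.198% lower). Without the T/NK libraries the Cdkn2d term was -1.68 and called (adjusted p = 0.0291).

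Between the sorts themselves the 3 D cyclins were lower in TAMs at both stages tested. In Vehicle tumours 7 of the 10 genes were lower in TAMs than in TCs and none higher, where 54.8% of all genes were called (25.6% higher and 29.2% lower). Ccnd2 differed most, with 59.2 ± 16.9 CPM in the TAMs against 1299 ± 677 CPM in the TCs (SD, n = 5 each; log2 difference -4.46 with SE 0.489, adjusted p = 9.24e-09 by edgeR). Ccnd1 averaged 116 ± 34.6 CPM in the TAMs against 1446 ± 663 CPM in the TCs (log2 difference -3.64 with SE 0.749, adjusted p = 0.000159 by edgeR), and Ccnd3 differed by -1.27 (adjusted p = 0.00656). Of the inhibitors, Cdkn2b (-2.73), Cdkn2a (-2.20), Cdkn2c (-1.88) and Cdkn1b (-0.89) were lower in TAMs. Cdkn1a (0.41, adjusted p = 0.452), Cdkn2d (0.14, 0.695) and Cdkn1c (-0.44, 0.571) were not called.

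In Rebound tumours 8 were lower in TAMs than in TCs and none higher, where 47.8% of all genes were called (20.4% higher and 27.4% lower). They were the same 7 and Cdkn2d (-0.81, SE 0.289, adjusted p = 0.0214). Cdkn2d was not called without TAM Rebound 49827, 49834 or 49849 (-0.71 to -0.67) and was -1.53 without the T/NK libraries. Cdkn1b (-0.69, adjusted p = 0.0215) was not called with the mouse as a block (-0.59, adjusted p = 0.107) or without TAM Rebound 49827 or 49834 or TC Rebound 49827 (-0.62 to -0.58). Ccnd3 differed by -1.41, and by -2.30 without the T/NK libraries. Endpoint was not tested here between the sorts, because the PDGFRA sort went against its label there.

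The order of levels per kilobase differed between the sorts. In TC Vehicle the means ran Ccnd1, Ccnd2, Cdkn2d, Cdkn2b, Cdkn1a, Cdkn2c, Ccnd3, Cdkn1b, Cdkn2a and Cdkn1c from high to low, with 307 ± 141 CPM per kb for the first and 0.892 ± 0.282 CPM per kb for the last (SD, n = 5). The ranges of mean ± SD overlapped between neighbours in that order, except between Ccnd2 and Cdkn2d, Cdkn2d and Cdkn2b, and Cdkn2a and Cdkn1c. In TC Endpoint the first was Cdkn1c at 38.9 ± 38.7 CPM per kb beside Cdkn2d at 36.3 ± 11.2 and Ccnd2 at 35.2 ± 11.6 CPM per kb, and these 3 did not differ beyond their spread. That first place rested on Endpoint 49845, with 116 CPM per kb of Cdkn1c and 17.8 of Cdkn2d. In each other Endpoint library Cdkn1c lay below Cdkn2d. In TAM Vehicle the first was Cdkn2d at 51.2 ± 18.6 CPM per kb, followed by Ccnd1 at 24.6 ± 7.34 and Cdkn1a at 22.8 ± 11.7 CPM per kb, and those last 2 lay within each other's spread.

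The wider cell cycle genes were counted beside the same shares of all genes. These lists, and the RB-E2F and upstream lists below, are given only with the T/NK libraries included. Of 24 G2/M genes, 20 fell and none rose in TC Endpoint against Vehicle (median -2.19), where 14.8% of all genes were called lower and 14.0% higher. In TC Rebound against Endpoint 22 rose and none fell (median 2.35), where 13.6% were called higher and 11.5% lower. In TC Rebound against Vehicle none was called by edgeR, where 0.0734% of all genes were called, so this is no result about the list. The mitotic kinase Aurka was 54.3 ± 26.2 CPM in TC Rebound, 7.63 ± 4.31 CPM in TC Endpoint and 57.6 ± 32.7 CPM in TC Vehicle (Endpoint against Vehicle log2 difference -2.91 with SE 0.512, adjusted p = 0.00134 by edgeR). The mitotic cyclin Ccnb1 changed by -3.61 in the same contrast. Of 24 G1/S genes 17 fell and none rose in TC Endpoint against Vehicle (median -1.38), among them Tyms, which makes thymidylate (-1.46), and the primase Prim1 (-1.39); 16 rose and none fell in Rebound against Endpoint. The tumour cell marker sum was lower and the choroid plexus sum higher in the same TC Endpoint libraries. Myelinating oligodendrocyte markers summed to 178 to 1509 CPM in TC Rebound, 1077 to 1393 CPM in TC Endpoint and 418 to 593 CPM in TC Vehicle. The part of these cells in the counts was not tested.

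In TAMs 17 of the 24 G2/M genes fell and none rose in Rebound against Vehicle (median -1.69), where 7.73% of all genes were called lower. In Rebound against Endpoint 22 fell and none rose (median -1.87), where 5.90% were called lower. In Endpoint against Vehicle 3 rose and 1 fell, a share below the 33.0% of all genes called. Plk1, a mitotic kinase, was 8.40 ± 2.25 CPM in TAM Rebound, 30.8 ± 9.69 CPM in TAM Endpoint and 71.5 ± 40.4 CPM in TAM Vehicle, and fell in Rebound against Vehicle (log2 difference -3.01 with SE 0.369, adjusted p = 0.000171 by edgeR). Mki67, the proliferation marker Ki-67, rose in Endpoint TAMs (log2 difference 1.25 with SE 0.408, adjusted p = 0.0257 by edgeR), at 178 ± 51.1 CPM against 80.3 ± 48.7 CPM in Vehicle. Of the 24 G1/S genes 3 rose and 1 fell in TAM Endpoint against Vehicle and 1 fell in TAM Rebound against Vehicle, both shares below those of all genes called, 33.0% and 14.7%. Markers of other cells differed in the same TAM libraries. Endothelial cell markers are given with Ccnd2 above, and myelinating oligodendrocyte markers summed to 106 to 436 CPM at Rebound, 51.4 to 137 CPM at Endpoint and 47.2 to 76.2 CPM in Vehicle. Astrocyte markers summed to 520 to 1705 CPM at Rebound, 1546 to 2836 CPM at Endpoint and 1753 to 3238 CPM in Vehicle. T and NK cell markers summed to 3.75 to 109 CPM at Rebound, 3.73 to 20.4 CPM at Endpoint and 1.5 to 6.12 CPM in Vehicle. The part of all these cells in the counts was not tested.

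**Figure D5:**
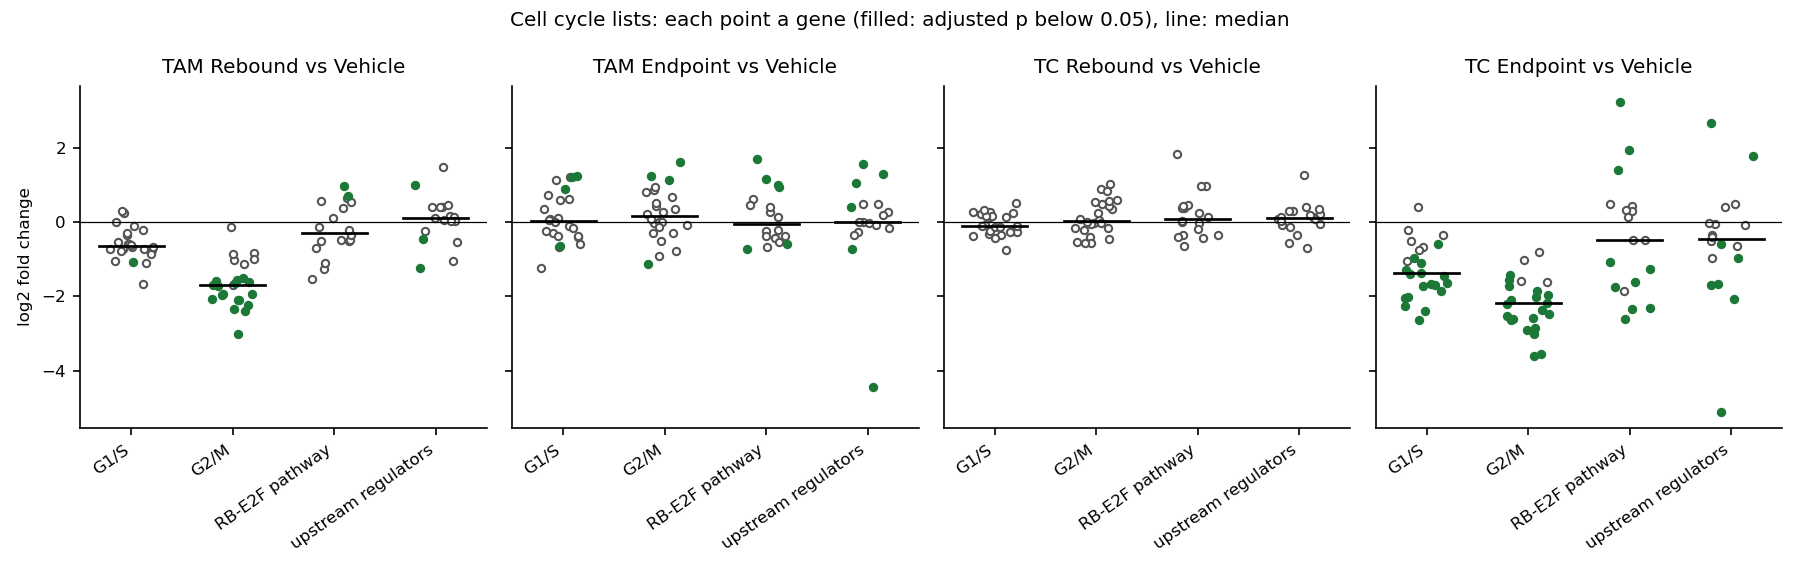
Log2 fold change against Vehicle of the genes of 4 lists (each point a gene, filled where the edgeR adjusted p is below 0.05; lines are medians), for Rebound and Endpoint in each sort. The G2/M median is -1.69 in TAM Rebound and -2.19 in TC Endpoint. No point is filled in TC Rebound, where 0.0734% of all genes were called.

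Among the partners of the D cyclins, the kinase gene Cdk4 was 408 ± 102 CPM in TC Rebound, 163 ± 61.6 CPM in TC Endpoint and 552 ± 90.2 CPM in TC Vehicle. It fell at Endpoint against Vehicle (log2 difference -1.74 with SE 0.252, adjusted p = 0.000562 by edgeR) and was higher at Rebound than at Endpoint (log2 difference 1.33 with SE 0.250, adjusted p = 0.00217 by edgeR). Of 18 RB-E2F pathway genes 3 rose and 7 fell in TC Endpoint against Vehicle, where 28.7% of all genes were called, among them the E2F partner Tfdp1, which fell (-1.61), and the RB relative Rbl2, which rose (1.95). In TAM Endpoint 4 rose and 2 fell, a share near the 33.0% of all genes called and so no result about the list, with Rb1 itself at 40.2 ± 8.09 CPM against 22.8 ± 8.83 CPM in Vehicle (log2 difference 0.95 with SE 0.262, adjusted p = 0.00942 by edgeR) and Tfdp2 higher by 1.71. In Rebound against Vehicle TAMs 2 rose, where 14.7% of all genes were called, Tfdp2 (0.97) and Rbl2 (0.71). The kinase Cdk6 was the reverse of Cdk4 between the sorts of Vehicle tumours, 10.8 ± 1.92 CPM in the TAMs against 0.357 ± 0.308 CPM in the TCs (log2 difference 4.90 with SE 0.892, adjusted p = 3.13e-05 by edgeR), beside 232 ± 55.1 CPM and 552 ± 90.2 CPM for Cdk4 (-1.25).

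Of 18 upstream regulators known to act on the CDK inhibitors or D cyclins, 4 rose and 2 fell among 17 tested in TAM Endpoint against Vehicle, again a share near the 33.0% of all genes called. Myc, which is known to induce Ccnd2 and to repress Cdkn1a, was 62.8 ± 69.6 CPM in TAM Rebound, 5.77 ± 2.61 CPM in TAM Endpoint and 137 ± 46.5 CPM in TAM Vehicle (log2 difference -4.44 with SE 0.552, adjusted p = 3.45e-05 by edgeR). The Polycomb genes Ezh2 (1.3) and Bmi1 (1.06), known as repressors of the Cdkn2a locus, rose in the same contrast. In TC Endpoint 2 of 18 rose and 6 fell against Vehicle, where 14.0% of all genes were called higher and 14.8% lower. Mycn was 7.75 ± 4.76 CPM in TC Rebound, 0.205 ± 0.331 CPM in TC Endpoint and 8.63 ± 3.96 CPM in TC Vehicle and fell (log2 difference -5.12 with SE 0.935, adjusted p = 0.00159 by edgeR). Foxo1, a factor known to induce Cdkn1b, rose (1.80), at 45.2 ± 14.9 CPM in TC Endpoint against 13.1 ± 3.46 CPM in TC Vehicle, and so did the Polycomb gene Cbx7 (2.69). In TC Rebound against Vehicle none of the 4 lists had a gene called by edgeR, where 0.0734% of all genes were called, so this is no result about the lists.

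The genes whose levels followed each of the 10 most closely were sought over the 16 libraries of a sort, as a description that carries the stage groups in it. In TCs Ccnd2 was followed by AI836003 (0.935) and Ccnd1 (0.926), given with Spearman's rho, of 14985 genes. Ccnd1 was followed by Actr1a (0.938) and Rbm14 (0.935), and Cdkn2b by Kif3c (0.935) and Bub3 (0.932), the last of them a checkpoint gene. In TAMs Ccnd2 was followed by C3ar1 (0.953) and Gdf3 (0.935), the first of which encodes a complement receptor. Cdkn2c was followed by 1600020E01Rik (0.976) and Bmyc (0.950) and Cdkn1a by Mdh2 (0.953) and Hspa8 (0.944). The loosest were Cdkn2d in TCs, with Eif6 (0.794) and Med7 (0.759), and Cdkn2b in TAMs, with Jund (0.841) and Fcho1 (0.832).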

How the data were processed

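RNA of sorted TAMs and PDGFRA+ cells was sequenced as 50-base read pairs from SMART-Seq libraries, which do not mark strand, per the labels' protocols. The authors deposited raw counts per gene symbol; STAR 2.3.0e, SAMtools and the build mm10 are named in the submitters' processing notes, and which program and annotation gave the counts is not given in the sources used here. Every value column was matched to a sample by its title. The counts as deposited were tested with edgeR 4.0.16 in R 4.3.3 (filterByExpr, TMM scaling, quasi-likelihood test, Benjamini-Hochberg adjustment over all genes tested, threshold 0.05). The 3 stages were fitted together within each sort, over 13315 genes in TAMs and 14985 in TCs, and the sorts were compared in 1 fit of 32 libraries over 15668 genes. Levels in CPM were scaled over all 32 libraries, so they can differ slightly from the fold changes of a sort's own fit.

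Alternatives were DESeq2 1.42.0, RLE scaling, no low-count filter, halved Endpoint and Rebound counts, the mouse as a block, and leaving out each library. Leaving out the 8 libraries with T and NK cell markers was chosen after seeing the data. Same-numbered TAM and TC libraries come from the same mouse, which pairs them; their deviations from group means correlated at 0.0110 to 0.337 over 15 mice. Each library is a separate mouse within its group, and no replicates were alike within sampling noise (lowest chi-square per degree of freedom 21.0). On simulated counts, 81.6% of 4-fold changes were recovered in TAM Endpoint against Vehicle (13073 genes), 31.6% in TC Endpoint against Vehicle (14653 genes) and 49.5% in TC Rebound against Vehicle (14652 genes). Far fewer genes were changed in the simulated Endpoint contrasts than were called in the data, so these rates can differ from those of the tests run.

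All 10 genes are named in each contrast; of each cell cycle list at most 4 called genes with the smallest adjusted p per contrast are named, and 2 nearest genes per member and sort. The members and lists were chosen with earlier results of these data known. Chromosome positions and exon lengths come from GENCODE M21 and promoters from RefSeq.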

Additional observations from a re-analysis of the deposited data

Results flagged for a closer look

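Of 60 groups of 5 or 6 libraries tested, 1 for each gene and group, 6 held a library farther from its neighbours than Dixon's critical value. Chance gives about 1 in 20 only for independent groups of normally distributed values. These groups share libraries and the CPM were not log-transformed, so the 6 cannot be read as an excess. In TC Endpoint 3 of them stood apart: Cdkn1c in 49845 at 237 CPM, Ccnd1 in 49843 at 252 CPM, and Cdkn2b in 49843, lowest at 2.15 CPM from 10 counts. Those 2 libraries also had the highest choroid plexus sum (49845, 185771 CPM) and the highest tumour cell marker sum (49843, 1410 CPM) of the group. Library 49843 had the highest myeloid sum as well (3239 CPM). The part of these cells in the levels was not tested. In TAM Endpoint 49843 was highest for Cdkn1a (25.2 CPM) and for Cdkn2a (5.78 CPM). In TAM Vehicle 64247 was highest for Cdkn1a (154 CPM).

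The Endpoint against Vehicle change differed between the sorts, by the interaction term, for Ccnd1 (3.83, TAM minus TC, log2), Cdkn2a (3.14), Cdkn2b (2.71), Cdkn2c (2.08), Cdkn1b (0.91), Cdkn2d (-1.47) and Cdkn1c (-4.87). Cdkn2c was the 1 gene of these that was called in opposite directions in the sorts, 1.25 in TAMs and -0.92 in TCs. The other 6 were called in 1 sort and not in the other. The PDGFRA sort at Endpoint held choroid plexus markers at 5225 to 185771 CPM, against 8.74 to 515 CPM in TC Vehicle.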

How the results depend on the processing

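Of 853 alternative values for the 49 called results of the 10 genes (log2 fold changes), 770 kept the direction and the call, 83 lost the call and 0 reversed. Of 927 for the uncalled results, 868 stayed uncalled in the same direction, 6 passed the threshold and 53 changed sign. Depth limits Cdkn2a and Cdkn2b, which rest on 6 to 26 and 10 to 66 counts in TC Endpoint libraries. It also limits Cdkn1c in TAMs, with 6 to 60 counts at Rebound and 8 to 42 in Vehicle libraries. Counts of Endpoint and Rebound libraries were all even, so they may not compare directly with those of Vehicle. On simulated counts 40% of 2-fold changes were recovered in TAM Endpoint vs Vehicle, 5.15% in TC Endpoint vs Vehicle and 4.17% in TC Rebound vs Vehicle. Small TC differences may therefore not be detectable. In the simulated TC Endpoint contrast 97 genes changed 2-fold and 95 changed 4-fold, while 28.7% of all genes were called in the data. The rates can therefore differ from those of the tests run.

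No paired analysis was possible because no mouse was sampled at more than 1 stage, for the 6 stage contrasts. With the mouse as a replicate block, the fits across sorts lost the calls of Cdkn1b (-0.59 for TAM against TC in Rebound, 0.97 for the Endpoint interaction), turned the uncalled Rebound interaction of Ccnd3 to 0.10, and called 4 of all genes in the Rebound interaction; no other call of the 10 genes changed.

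Without the libraries with T and NK cell markers, an alternative chosen after seeing the data, the count of called members was 1 in TAM Rebound vs Vehicle, 3 in TAM Rebound vs Endpoint, 2 in TC Endpoint vs Vehicle, 3 in TC Rebound vs Endpoint and 1 in the TAM minus TC difference in Rebound vs Vehicle. Over all genes it was 525 in TAM Rebound vs Vehicle, 592 in TAM Rebound vs Endpoint, 1124 in TC Endpoint vs Vehicle, 320 in TC Rebound vs Vehicle, 2407 in the TAM minus TC difference in Endpoint vs Vehicle and 293 in that of Rebound vs Vehicle. It turned the sign of these uncalled values: Cdkn2a 0.16 and Ccnd1 -0.11 in TAM Rebound vs Vehicle, Cdkn1c -0.17 and Ccnd3 -0.15 in TAM Rebound vs Endpoint, Ccnd3 0.029 in TC Rebound vs Endpoint, Cdkn1a -1.18 in TAM vs TC in Rebound, Ccnd2 0.034 in the Endpoint interaction, and Cdkn1b -0.13, Cdkn2b -0.40 and Ccnd1 -0.0029 in the Rebound interaction. That alternative has fewer libraries, and in TC Endpoint and in TAM Rebound it leaves 2 each. The numbers of genes tested in it are not given here, so its counts are not set against shares. A call lost there cannot be told apart from the loss of libraries.

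In TC Rebound vs Vehicle DESeq2 called 673, halved counts 25, and leaving out 1 library 0 to 586. In the Rebound interaction DESeq2 called 376 and leaving out 1 library 36 to 605; the highest value of each came without TC Rebound 49827. The cause was not tested.

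Leaving out 1 library gave 1 to 3 called members in TAM Rebound vs Vehicle and 3 to 5 in TAM Rebound vs Endpoint. It turned uncalled values in TAM Rebound vs Vehicle (Ccnd1 -0.22 to 0.32, Ccnd3 -0.37 to 0.25), in TAM Rebound vs Endpoint (Cdkn1c -0.30 to 0.29), in TC Endpoint vs Vehicle (Ccnd3 -0.023 to 0.36), in TC Rebound vs Vehicle (Cdkn2c -0.20 to 0.23, Ccnd2 -0.17 to 0.32, Ccnd3 -0.15 to 0.27) and in TC Rebound vs Endpoint (Cdkn1b -0.10 to 0.17, Cdkn2d -0.0074 to 0.22, Ccnd3 -0.33 to 0.092). Across sorts it turned Cdkn2d in Vehicle (-0.039 to 0.30), Cdkn1a in Rebound (-0.37 to 0.51), and in the Rebound interaction Cdkn1a (-0.79 to 0.20), Cdkn1c (-0.92 to 0.024), Cdkn2b (-0.10 to 0.46) and Ccnd3 (-0.50 to 0.14).

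RLE scaling alone moved the median of all genes by over 0.1 in TAM vs TC in Vehicle (-0.23, against -0.12). DESeq2, which changes more than the scaling, gave a median of 0 there, 0 against -0.16 in TAM vs TC in Rebound and -0.27 against -0.16 in the Endpoint interaction. Under both, no direction of a called member turned.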
